A study of Mus musculus with 12 samples.

Results

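The hepatic endothelial transcripts described here are 34 genes, 11 that mark liver sinusoidal endothelium and 23 that mark vascular endothelium in general, of 34844 gene names on the array. They were chosen by symbol, with the probe of highest mean signal for each gene, and all 34 were present and passed the filter on dim probes, among 26517 genes tested. RNA came from male mice of mixed 129/SV/B6 background that carried hepatocellular carcinomas (HCC) raised with the liver carcinogen diethylnitrosamine (DEN), injected at 50 mg/kg at an age of 2 weeks. In all groups the interferon inducer poly(IC) followed DEN by 8 months and preceded collection by 1 week, and the mice had been irradiated and had received transplanted bone marrow 2 months earlier. The 4 groups of 3 arrays were HCC of Mxcre+ mice (survivin deleted), HCC of Mxcre- mice (survivin wild type), non-cancerous liver of Mxcre+ mice and non-cancerous liver of Mxcre- mice. Mx-Cre is switched on by poly(IC) in many cell types, so the deletion need not be limited to hepatocytes, endothelium or tumour cells. The genotype of the transplanted marrow is not given here, so the deletion is not known for blood cells derived from it. Whether each array stands for its own mouse is not said in the labels, so p-values measure only the spread between these arrays.

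Liver sinusoidal endothelial cells line the hepatic capillaries. They are fenestrated, lack an organised basement membrane and clear waste from blood through scavenger and lectin receptors, and the transcription factor GATA4 is needed to keep this state in the mouse. When the sinusoid is capillarised, as is described in chronic liver disease and in liver tumours, these features are lost and markers of continuous endothelium such as CD34 are gained. General vascular endothelium is defined by receptors for VEGF and the angiopoietins, by junction proteins such as VE-cadherin, and by von Willebrand factor. The comparisons ask how both sets of genes differed between HCC and liver, and between survivin-deleted and wild-type tissue.

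Each value below is a level on 1 array, in log2 units relative to the 75th percentile of that array, so 0 means a signal equal to that percentile. A change is the difference of 2 group means on that scale. In every group the array given first, replicate 1, lay on slide 1, and replicates 2 and 3 lay on slide 2. The 75th percentile of signal was 1131.4 to 1765.5 intensity units on slide 1 and 3343.5 to 3906.2 on slide 2. On wild-type liver replicate 1, 49% of spots were well above background, against 69.2% to 83.4% elsewhere. Of the members, 32 were well above background on all 12 arrays, whereas Flt4 and Sox17 were so on 10.

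Birc5, which encodes survivin and checks the labels, measured 0.06, 0.17 and -0.08 in survivin-deleted HCC, against 0.80, 0.82 and 1.76 in wild-type HCC. It measured 2.42, -0.10 and -1.07 in survivin-deleted liver, against 2.85, 0.51 and 0.76 in wild-type liver. The HCC groups did not overlap. The liver groups did, since the array labelled survivin-deleted liver replicate 1, at 2.42, was above the wild-type liver arrays of slide 2. It was below wild-type liver replicate 1 of its own slide, at 2.85, so Birc5 alone does not settle its label. Where this probe lies relative to the deleted part is not given in the sources used here. In the deposited value table this array and the array labelled wild-type HCC replicate 1 hold each other's signals (r = 0.964 and 0.97 with their own scanner files, r = 1 with the other's). The scanner files' assignment was used, and many of the values that rest on these 2 arrays are also given with the arrays exchanged or without both.

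Hepatocyte markers such as albumin were high on every array, with a mean level of 5.61 to 5.71 in deleted HCC, 5.77 to 5.93 in wild-type HCC, 5.45 to 5.56 in deleted liver and 5.82 to 5.92 in wild-type liver over 11 genes. The defining endothelial genes Stab2, Clec4g, Cdh5 and Pecam1 were well above background on all 12 arrays. In such bulk RNA, fewer endothelial cells and less of a transcript per cell cannot be told apart.

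Promoters are shown for 3 sinusoidal and 2 vascular genes, as examples of the sequence near which a shared regulator of either set could act. They run from 250 bases before to 50 bases after the transcription start, are credited to RefSeq on assembly GRCm38.p6, and are printed 5′ to 3′ on the gene's strand. Capitals mark GGAAGT, or its reverse complement ACTTCC, a short form of the ETS factor motif.
Fcgr2b, chr1:170976022-170976321, minus strand: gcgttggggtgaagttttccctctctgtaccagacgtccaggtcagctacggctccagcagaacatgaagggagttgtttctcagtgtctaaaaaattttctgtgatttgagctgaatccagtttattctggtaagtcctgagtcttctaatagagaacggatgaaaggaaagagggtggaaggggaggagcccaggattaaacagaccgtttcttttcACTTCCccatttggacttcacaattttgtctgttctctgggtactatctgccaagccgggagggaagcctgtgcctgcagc
Clec4g, chr8:3720602-3720901, minus strand: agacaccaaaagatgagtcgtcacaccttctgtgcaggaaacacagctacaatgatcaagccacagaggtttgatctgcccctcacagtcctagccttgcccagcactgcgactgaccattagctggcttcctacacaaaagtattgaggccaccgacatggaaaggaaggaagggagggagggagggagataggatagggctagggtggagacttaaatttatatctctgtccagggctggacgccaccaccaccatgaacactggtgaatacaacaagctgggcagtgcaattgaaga
Stab2, chr10:87007893-87008192, minus strand: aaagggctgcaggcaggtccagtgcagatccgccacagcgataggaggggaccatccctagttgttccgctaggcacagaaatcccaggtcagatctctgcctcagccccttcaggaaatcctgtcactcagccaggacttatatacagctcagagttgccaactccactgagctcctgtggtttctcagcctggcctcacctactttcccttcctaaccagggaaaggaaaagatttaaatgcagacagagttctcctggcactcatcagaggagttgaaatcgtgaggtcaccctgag
Flt1, chr5:147725962-147726261, minus strand: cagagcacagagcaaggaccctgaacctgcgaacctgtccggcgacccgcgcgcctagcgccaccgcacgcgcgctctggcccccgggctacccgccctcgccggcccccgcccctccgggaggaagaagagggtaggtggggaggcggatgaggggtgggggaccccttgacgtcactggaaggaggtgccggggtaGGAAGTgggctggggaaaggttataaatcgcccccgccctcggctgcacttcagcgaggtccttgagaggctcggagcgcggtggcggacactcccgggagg
Tie1, chr4:118489800-118490099, minus strand: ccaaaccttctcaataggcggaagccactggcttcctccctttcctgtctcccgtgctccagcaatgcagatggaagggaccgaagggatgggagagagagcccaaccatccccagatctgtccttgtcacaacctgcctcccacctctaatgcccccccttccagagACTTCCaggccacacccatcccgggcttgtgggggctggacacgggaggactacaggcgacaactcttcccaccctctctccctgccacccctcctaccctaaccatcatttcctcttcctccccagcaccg
Of the 34 members, 17 had an entry, with 19 promoters. GGAAGT, searched on both strands, was in 2 of 6 sinusoidal and 6 of 13 vascular promoters, against 23.8% of all promoters. The motif AGATAA of GATA factors was in 0 of 6 and 1 of 13 (11.2% of all), and the motif ACAAAG of SOX factors in 0 of 6 and 3 of 13 (18.7% of all). None of the 5 promoters shown holds AGATAA or ACAAAG. A match is a stretch of letters, not a site.

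Averaged over the 11 sinusoidal genes, wild-type liver stood above every other array. The mean level was 0.72, -0.16 and 0.53 in deleted HCC, 0.30, 0.44 and 0.62 in wild-type HCC, 0.45, 0.61 and 0.94 in deleted liver, and 1.04, 1.13 and 1.16 in wild-type liver. As group means these were 0.36 ± 0.46, 0.46 ± 0.16, 0.67 ± 0.25 and 1.11 ± 0.06 in the same order (SD, n = 3 each). The neighbouring groups deleted HCC, wild-type HCC and deleted liver overlapped.

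The 23 general vascular genes did not show that order. Their mean level was 0.27, 0.69 and -0.15 in deleted HCC, -0.59, 0.57 and 0.32 in wild-type HCC, 0.07, -0.29 and 0.59 in deleted liver, and 0.29, 0.35 and 0.30 in wild-type liver. The wild-type liver arrays lay inside the range of each of the other 3 groups. The sinusoidal mean minus the vascular mean was 0.45, -0.86 and 0.68 in deleted HCC, 0.89, -0.13 and 0.30 in wild-type HCC, 0.38, 0.90 and 0.34 in deleted liver, and 0.74, 0.78 and 0.87 in wild-type liver. Deleted HCC replicate 2 had the lowest sinusoidal mean of all 12 arrays and the highest vascular mean.

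**Figure D1:**
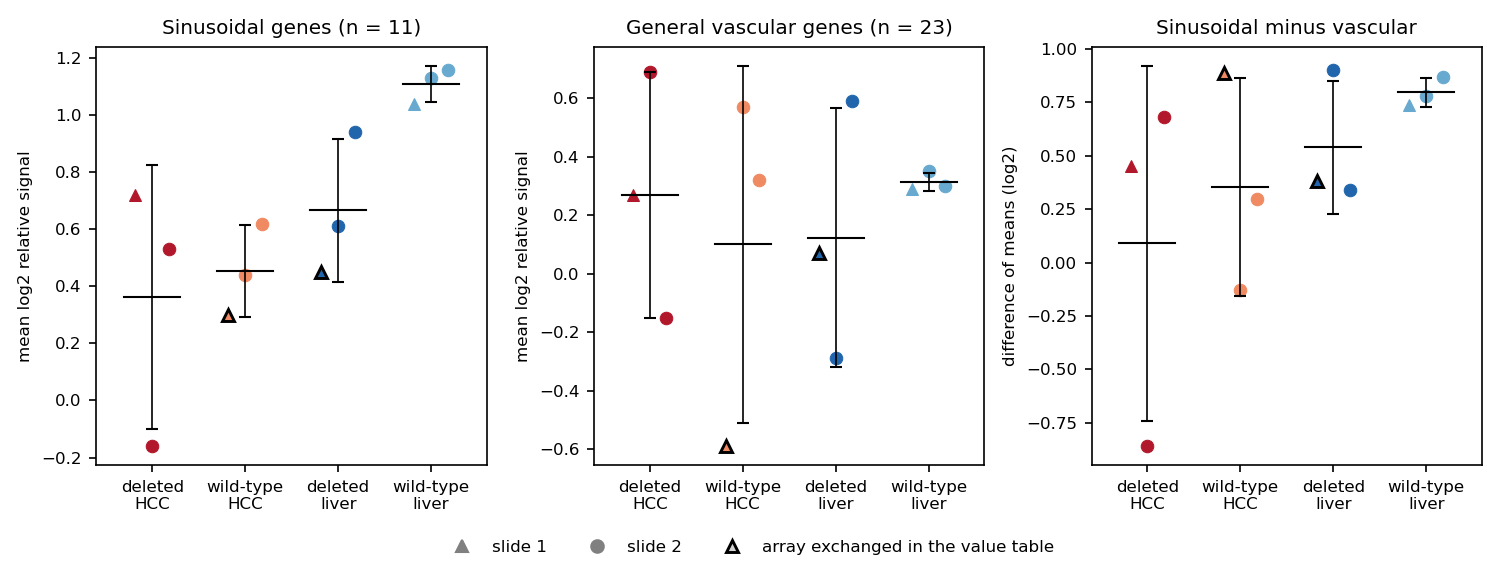
Mean log2 relative signal of the 11 sinusoidal genes (left), of the 23 general vascular genes (middle) and their difference (right) on each array, by group. Triangles are slide 1, circles slide 2, black outlines the 2 arrays that the value table exchanges, and lines with bars the group mean ± SD. Wild-type liver, at 1.04 to 1.16, lies above all other arrays in the left panel only.

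In wild-type tissue, all 11 sinusoidal genes measured lower in HCC than in liver, with a median change of -0.69. The median change over all genes tested was 0.04, and 44.6% of them were lower. The largest differences past an unadjusted p of 0.05 were those of Dnase1l3, which encodes a secreted DNase, and Bmp2, an endothelial signal that controls hepcidin in hepatocytes. By limma with slide as a block, no member passed an adjusted p of 0.05 (smallest 0.752), nor did any of the genes tested (0%), whereas 1614 of them had an unadjusted p under 0.05. At that unadjusted threshold 4 of the 11 sinusoidal genes were lower and 0 higher, against 2.42% of all genes lower and 3.66% higher. Without the slide block, 2 of the 11 were past it, against 0.886% of all genes lower, and Bmp2 and Fcgr2b were no longer among them (unadjusted p = 0.13 and 0.121). The general vascular genes had 19 of 23 lower with a median of -0.20, and 0 of 23 were past the unadjusted threshold in either direction (6.09% of all genes).

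That vascular direction depended on the array labelled wild-type HCC replicate 1. With both arrays exchanged, 11 vascular genes were higher and 12 lower (median -0.02), without both arrays 15 were higher (median 0.11), and on slide 2 alone 17 were higher (median 0.16). The sinusoidal genes kept their direction in these settings, with 11, 10 and 10 of 11 lower and medians of -0.60, -0.50 and -0.55. Past the unadjusted threshold were 3, 2 and 3 sinusoidal genes, all lower, against 4.02%, 3.47% and 4.01% of all genes lower.

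Dnase1l3 (probe at mm9 chr14:8797719-8797778) measured -0.70, -2.18 and -1.96 in wild-type HCC, against -0.14, -0.84 and -0.71 in wild-type liver. The slide 2 arrays of the groups lay far apart, and the HCC array of slide 1 lay within the range of liver. The change was -1.05 ± 0.31 (SE, limma), a 2.07-fold lower level, with unadjusted p = 0.0074 and adjusted p = 0.752. With the arrays exchanged it was -1.23, with unadjusted p = 2.69e-04.

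Bmp2 (mm9 chr2:133388260-133388319) measured 1.03, -0.31 and 0.11 in wild-type HCC, against 2.14, 0.66 and 0.99 in wild-type liver. Within each slide every HCC array was below every liver array, although the slides differed in level. The change was -0.99 ± 0.31 (SE; limma unadjusted p = 0.00913, adjusted p = 0.752), and it stayed between -1.12 and -0.90 when any 1 array was left out.

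Lyve1 encodes a hyaluronan receptor of sinusoidal and lymphatic endothelium (probe at mm9 chr7:117994171-117994230). It measured -0.09, 0.59 and 0.12 in wild-type HCC, against 1.09, 0.81 and 0.80 in wild-type liver, and the groups did not overlap. The change was -0.69 ± 0.26 (SE; limma unadjusted p = 0.0252, adjusted p = 0.752). Without wild-type HCC replicate 1 it was -0.44 (unadjusted p = 0.135).

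Fcgr2b, the inhibitory Fc receptor with which sinusoidal endothelium takes up immune complexes, lies at mm9 chr1:172890988-172891047. It measured -0.15, 1.41 and 1.10 in wild-type HCC, against 0.94, 1.93 and 1.68 in wild-type liver. HCC was lower on each slide, and the array labelled wild-type HCC replicate 1 was the lowest of all. The change was -0.73 ± 0.24 (SE; limma unadjusted p = 0.0136, adjusted p = 0.752), and -0.38 (unadjusted p = 0.168) with the arrays exchanged.

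Clec4g, the lectin LSECtin, measured 2.27, 1.73 and 2.07 in wild-type HCC, against 2.89, 2.77 and 3.02 in wild-type liver. These groups did not overlap either, but the spread of Clec4g over all arrays was wide, and the change was -0.87 ± 0.56 (SE; limma unadjusted p = 0.151). Among the 11 sinusoidal genes, Lyve1 and Clec4g were the 2 whose wild-type groups did not overlap, as against 0 of the 23 vascular genes, while 2.39% of all genes were lower in wild-type HCC without overlap.

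The scavenger receptor genes did not behave alike. Stab2, whose product clears hyaluronan, measured 2.71, 1.61 and 2.47 in wild-type HCC, against 3.37, 2.39 and 2.55 in wild-type liver, and its change was -0.51 ± 0.28 (SE; limma unadjusted p = 0.107). Stab1, which is also made by macrophages, had a change of -0.05 ± 0.23. All 3 Stab2 probes gave a lower value, from -0.72 to -0.45. F8 and Gata4 had changes of -0.65 ± 0.36 and -0.43 ± 0.21, and the remaining sinusoidal genes Oit3 and Ehd3, an endocytic recycling gene, of -0.14 ± 0.67 and -1.08 ± 0.78 (SE). A second F8 probe gave -0.02. Of all 11, Ehd3 and Oit3 had the widest errors. The change of Ehd3 was -0.35 with the arrays exchanged, -0.13 on slide 2 alone and 0.14 without both arrays in doubt.

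**Figure D2:**
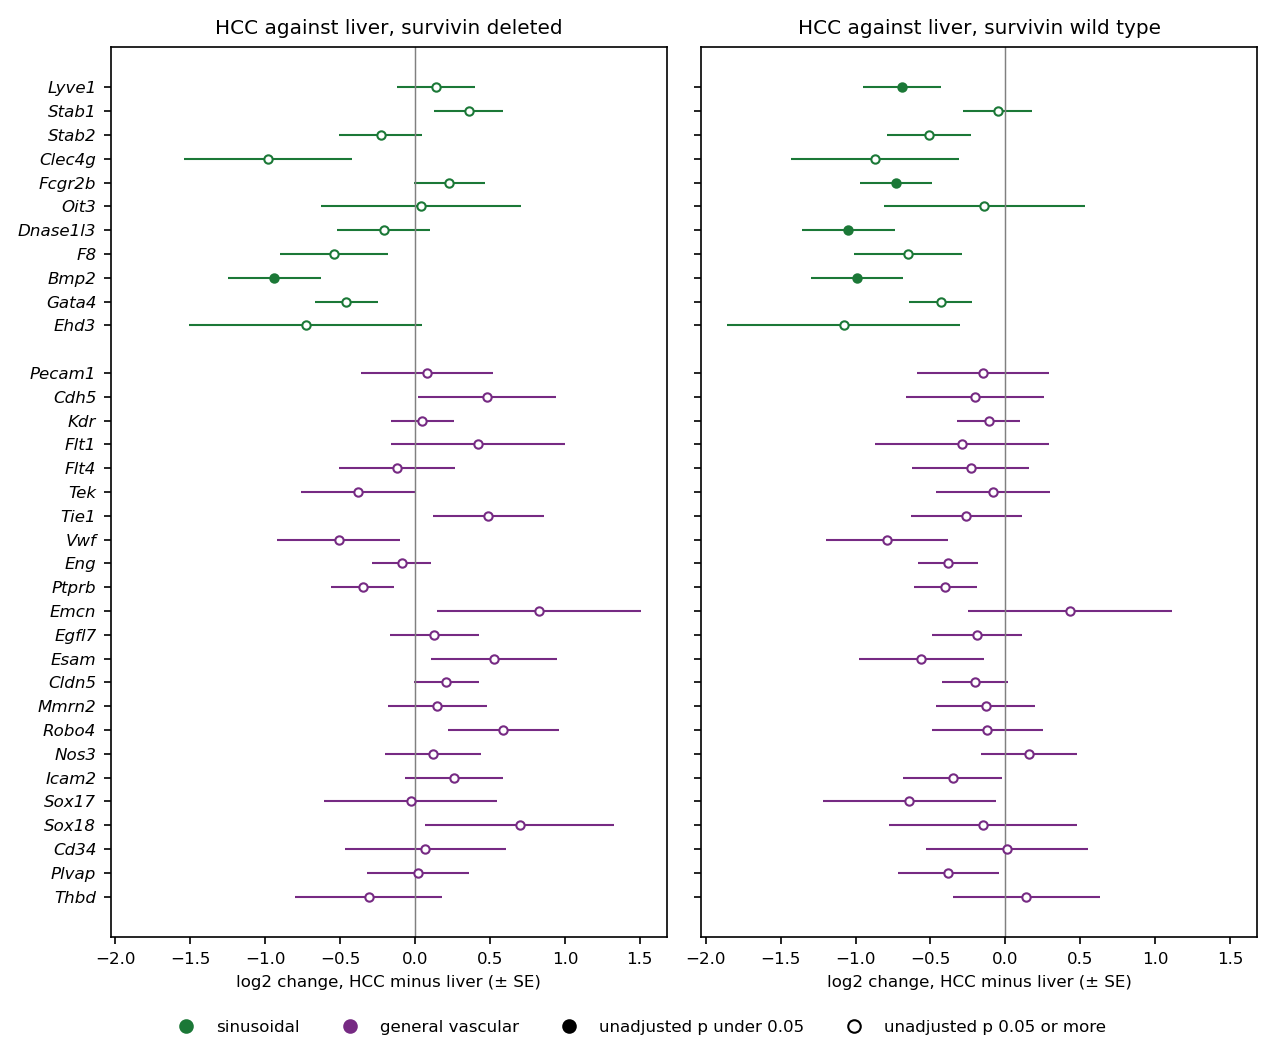
Log2 change of each of the 34 genes, HCC minus liver, in survivin-deleted tissue (left) and in wild-type tissue (right), with SE from the limma fit. Green is sinusoidal, purple general vascular, and filled points have an unadjusted p under 0.05. All 11 sinusoidal genes lie left of 0 in wild-type tissue and 7 of 11 in deleted tissue.

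In survivin-deleted tissue the sinusoidal genes were less uniform. Of 11, 7 were lower in HCC and 4 higher, with a median change of -0.23 against -0.04 over all genes. By limma no gene passed the adjusted threshold (0%; smallest adjusted p of a member 0.904), with 1163 genes at an unadjusted p under 0.05. At that threshold 1 of the 11, Bmp2, was lower, against 2.64% of all genes lower. With the arrays exchanged, without both arrays and on slide 2 alone, 8 of 11 were lower each time, with medians of -0.39, -0.45 and -0.45.

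Bmp2 measured 0.89, -1.25 and -0.09 in deleted HCC, against 1.44, 0.18 and 0.76 in deleted liver. As in wild-type tissue, every HCC array was below every liver array of its slide. The change was -0.94 ± 0.31 (SE; limma unadjusted p = 0.0122, adjusted p = 0.904), and -0.73 (unadjusted p = 0.0569) without deleted liver replicate 3. Clec4g measured 2.43, 0.03 and 2.07 in deleted HCC, against 1.76, 2.76 and 2.97 in deleted liver. Deleted HCC replicate 2 was far below every other array, and the change of -0.98 ± 0.56 (SE; limma unadjusted p = 0.109) was -0.22 without it. The change of Bmp2 without that array was -0.57 (unadjusted p = 0.042).

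The general vascular genes had 16 of 23 higher in deleted HCC than in deleted liver, with a median of 0.12, and 0 of 23 were past the unadjusted threshold (4.39% of all genes in either direction). With the arrays exchanged 19 were higher (median 0.33). At that setting Cdh5, Emcn and Esam, genes of the endothelial junction and surface that were picked out after their values were seen, had unadjusted p of 0.0243, 0.0485 and 0.0495, against 2.91% of all genes higher. Emcn had the largest change of the vascular genes in deleted tissue at 0.83 ± 0.68 (SE), with levels of -0.56, 0.77 and -1.06 in deleted HCC, against -1.28, -1.85 and -0.21 in deleted liver. Its groups overlapped.

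The vascular receptors are taken by role. Kdr, the main VEGF receptor, had changes of 0.05 ± 0.21 in deleted and -0.11 ± 0.21 in wild-type tissue (SE), among the smallest errors in the set. A second Kdr probe gave -0.44 in deleted and -0.24 in wild-type tissue (limma unadjusted p = 0.182 and 0.458). The VEGF receptor Flt1 had changes of 0.42 ± 0.58 and -0.29 ± 0.58, and Flt4, the VEGF-C receptor, of -0.12 ± 0.39 and -0.23 ± 0.39. A second Flt1 probe gave 0.60 in deleted and 0.43 in wild-type tissue, the latter opposite in sign. The angiopoietin receptor Tek and its partner Tie1 had changes of -0.38 ± 0.38 and 0.49 ± 0.37 in deleted tissue, and of -0.08 ± 0.38 and -0.26 ± 0.37 in wild-type tissue. None of these 5 was past the unadjusted threshold in either genotype. After the exchange of the arrays, the changes of Flt1 were 1.00 ± 0.47 in deleted tissue (SE; limma unadjusted p = 0.0618) and 0.28 ± 0.47 in wild-type tissue, and those of Tie1 were 0.63 ± 0.34 and -0.12 ± 0.34.

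The junction and adhesion genes Pecam1, Cdh5 (VE-cadherin), Cldn5 and Icam2 had changes of 0.08 to 0.48 in deleted tissue and of -0.35 to -0.15 in wild-type tissue, with errors of 0.22 to 0.46. The endothelial transcription factors Sox17 and Sox18 had changes of -0.03 ± 0.58 and 0.70 ± 0.63 in deleted tissue, and of -0.64 ± 0.58 and -0.15 ± 0.63 in wild-type tissue. A second Sox17 probe gave 0.57 in deleted and 0.41 in wild-type tissue, both opposite in sign. Nos3, the endothelial nitric oxide synthase, and Thbd, the anticoagulant thrombomodulin, had changes of 0.12 ± 0.32 and -0.31 ± 0.49 in deleted tissue, and of 0.16 ± 0.32 and 0.14 ± 0.49 in wild-type tissue. The matrix-related genes Egfl7 and Mmrn2 stayed within -0.19 to 0.15 in both.

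Over both genotypes, 10 of 11 sinusoidal genes were lower in HCC (median -0.44) and 5 had an unadjusted p under 0.05, against 3.94% of all genes lower. By limma none passed the adjusted threshold (0%), with 1928 genes past the unadjusted one and a smallest adjusted p of 0.631 among the members. Bmp2 had the smallest p, with a change of -0.97 ± 0.22 (SE; unadjusted p = 0.00129), which lay between -1.09 and -0.78 with any 1 array left out. Dnase1l3 had a change of -0.63 ± 0.22, F8 of -0.59 ± 0.26 and Clec4g of -0.93 ± 0.39 (SE). A second F8 probe gave -0.28 (limma unadjusted p = 0.389). Without deleted HCC replicate 2 the changes of F8 and Clec4g were -0.35 and -0.55. The unadjusted p of F8 was 0.116 without wild-type HCC replicate 1, and that of Clec4g 0.0952 without deleted liver replicate 3. Without the slide block 3 of the 11 were past the unadjusted threshold, against 1.28% of all genes lower, and F8 and Gata4 were no longer among them (unadjusted p = 0.081 and 0.134). The general vascular genes split into 10 higher and 13 lower, with a median of -0.03, and with the arrays exchanged into 18 higher and 5 lower, with a median of 0.13.

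Gata4, the transcription factor of sinusoidal identity, measured -0.97, -0.46 and -0.01 in deleted HCC and -0.54, -0.37 and -0.30 in wild-type HCC. It measured -0.49, 0.11 and 0.32 in deleted liver and -0.73, 0.39 and 0.42 in wild-type liver. On slide 2 each of the 4 HCC arrays was below each of the 4 liver arrays, while on slide 1 the levels were mixed. The change over both genotypes was -0.44 ± 0.15 (SE; limma unadjusted p = 0.0157, adjusted p = 0.631), and it was -0.59 on slide 2 alone (unadjusted p = 0.0039).

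Cd34 and Plvap mark continuous or capillarised endothelium and its diaphragms. Cd34 measured 1.03, 1.18 and -0.05 in deleted HCC and -0.61, 1.13 and 0.22 in wild-type HCC, against 0.78, -0.19 and 1.37 in deleted liver and 0.58, 0.27 and -0.15 in wild-type liver. All 4 groups overlapped, and the change over both genotypes was 0.04 ± 0.38 (SE; limma unadjusted p = 0.922). It was 0.50 ± 0.37 (unadjusted p = 0.206) with the arrays exchanged and 0.28 ± 0.39 (unadjusted p = 0.488) without both. Plvap measured 0.56, 2.78 and 1.82 in deleted HCC and 0.23, 2.98 and 1.98 in wild-type HCC, against 0.49, 2.26 and 2.34 in deleted liver and 1.38, 2.47 and 2.48 in wild-type liver. Its change was -0.18 ± 0.24 (SE; unadjusted p = 0.467), and -0.09 ± 0.23 with the arrays exchanged.

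In the general vascular set, 2 of 23 genes were below an unadjusted p of 0.05 over both genotypes, both lower in HCC. Of all genes, 3.94% were past it as lower and 7.27% in either direction. Ptprb, the phosphatase that restrains the angiopoietin receptor, measured 2.15, 1.35 and 1.63 in deleted HCC and 2.25, 2.16 and 2.01 in wild-type HCC, against 2.31, 1.61 and 2.24 in deleted liver and 3.08, 2.32 and 2.21 in wild-type liver. Its change was -0.37 ± 0.15 (SE; limma unadjusted p = 0.0351). Vwf, which encodes von Willebrand factor, measured 1.41, 1.11 and 0.04 in deleted HCC and 1.23, -0.10 and -0.42 in wild-type HCC, against 1.53, 0.65 and 1.91 in deleted liver and 1.64, 1.07 and 0.36 in wild-type liver. The groups overlapped, the change was -0.65 ± 0.29 (SE; unadjusted p = 0.0487), and a second Vwf probe gave -0.02. The p of Ptprb was 0.0979 without deleted liver replicate 3, and that of Vwf 0.119 without deleted HCC replicate 3. Cdh5 at 0.62 ± 0.26 and Emcn at 1.01 ± 0.38 (SE; unadjusted p = 0.0358 and 0.0245) were past the threshold as higher in HCC with the arrays exchanged, against 6.52% of all genes higher. Ptprb was then the 1 vascular gene past it as lower, against 7.05% lower, and Vwf had unadjusted p = 0.119.

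**Figure D3:**
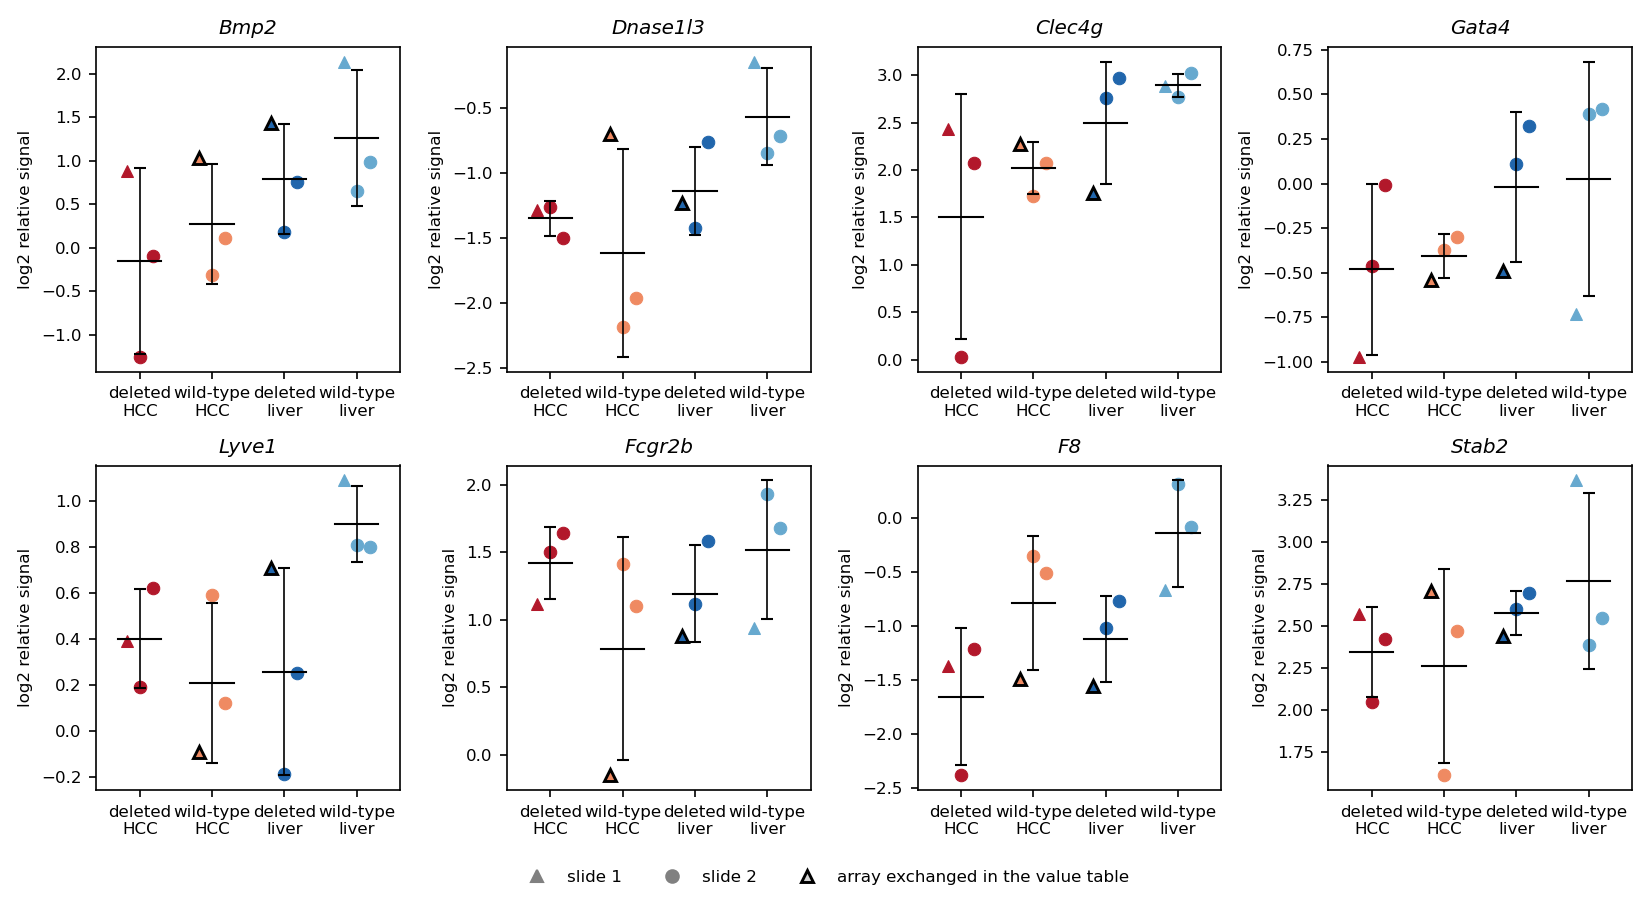
Log2 relative signal of 8 sinusoidal genes on each array, by group, with the group mean ± SD. Triangles are slide 1, circles slide 2, and black outlines the 2 arrays that the value table exchanges. Bmp2 is lower in HCC than in liver of the same genotype within each slide, and F8 and Clec4g are lowest on deleted HCC replicate 2.

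After survivin deletion in HCC the sinusoidal genes had no common direction, with 5 higher, 6 lower and a median change of 0.00. By limma no gene passed the adjusted threshold (0%; smallest for a member 0.602), with 2093 genes at an unadjusted p under 0.05. At that threshold 1 of 11 was higher, Fcgr2b, against 3.44% of all genes higher, and 1 was lower, F8, against 4.45% lower. Fcgr2b measured 1.12, 1.50 and 1.64 in deleted HCC, against -0.15, 1.41 and 1.10 in wild-type HCC. Only the array labelled wild-type HCC replicate 1 was far below the rest. The change of 0.63 ± 0.24 (SE; unadjusted p = 0.0265) was 0.29 (unadjusted p = 0.29) with the arrays exchanged and 0.38 (unadjusted p = 0.132) without both.

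F8, which encodes coagulation factor VIII and is made in the liver chiefly by sinusoidal endothelium, was low after deletion in both tissues. It measured -1.37, -2.38 and -1.21 in deleted HCC, against -1.49, -0.35 and -0.51 in wild-type HCC, and -1.55, -1.02 and -0.77 in deleted liver, against -0.66, 0.32 and -0.08 in wild-type liver. The liver groups did not overlap, while in HCC the slide 1 arrays were alike. The changes were -0.87 ± 0.36 in HCC (SE; limma unadjusted p = 0.0373, adjusted p = 0.625) and -0.98 ± 0.36 in liver (unadjusted p = 0.0224, adjusted p = 0.416). With the arrays exchanged they were -0.85 and -0.96. Without deleted HCC replicate 2 the change in HCC was -0.39 (unadjusted p = 0.14), and the change in liver had unadjusted p = 0.0797 without wild-type liver replicate 2. A second F8 probe gave -0.27 in liver (unadjusted p = 0.548).

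In HCC 16 of 23 general vascular genes were higher after deletion (median 0.17), and 0 were past the unadjusted threshold (7.89% of all genes in either direction). Esam, a junction adhesion molecule, had the largest change at 0.92 ± 0.42 (SE; limma unadjusted p = 0.0562). It measured 1.67, 2.12 and 0.94 in deleted HCC, against -0.33, 1.12 and 1.18 in wild-type HCC. The direction of the set rested on the array labelled wild-type HCC replicate 1. The median was -0.05 with the arrays exchanged, -0.18 without both arrays and -0.18 on slide 2 alone, where 17 of 23 were lower.

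In non-cancerous liver, most genes of both sets measured lower after deletion. All 11 sinusoidal genes were lower (median -0.40), as were 19 of 23 vascular genes (median -0.22), against a median of 0.05 and 44.9% lower over all genes. By limma no gene passed the adjusted threshold (0%; smallest for a member 0.416), with 3136 genes at an unadjusted p under 0.05. Past that threshold and lower were 2 of 11 sinusoidal genes, Lyve1 and F8, and 1 of 23 vascular genes, Ptprb, against 3.47% of all genes. With the arrays exchanged the medians were -0.40 and -0.50, and without both arrays -0.25 and -0.29, with 8 of 11 and 18 of 23 lower. The vascular direction rested on deleted liver replicate 2, and without that array the vascular median was 0.03. The vascular mean level was -0.29 on that array and 0.59 on deleted liver replicate 3, against 0.29 to 0.35 in wild-type liver. The sinusoidal median was -0.66 to -0.27 with any 1 array left out.

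Lyve1 measured 0.71, -0.19 and 0.25 in deleted liver, against 1.09, 0.81 and 0.80 in wild-type liver, with no overlap. The change was -0.65 ± 0.26 (SE; limma unadjusted p = 0.0345, adjusted p = 0.416), and -0.91 (unadjusted p = 0.00155) with the arrays exchanged. Without deleted liver replicate 2 it was -0.43 (unadjusted p = 0.15). In liver Ptprb had a change of -0.48 ± 0.21 (SE; unadjusted p = 0.0494), with unadjusted p = 0.189 without deleted liver replicate 2. Eng, the endoglin co-receptor, and Robo4, a vascular guidance receptor, were the 2 vascular genes whose liver groups did not overlap, beside the sinusoidal Lyve1 and F8, and 3.23% of all genes were lower in deleted liver without overlap. They were picked out after their values were seen, and their changes were -0.29 ± 0.20 and -0.65 ± 0.37 (SE).

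**Figure D4:**
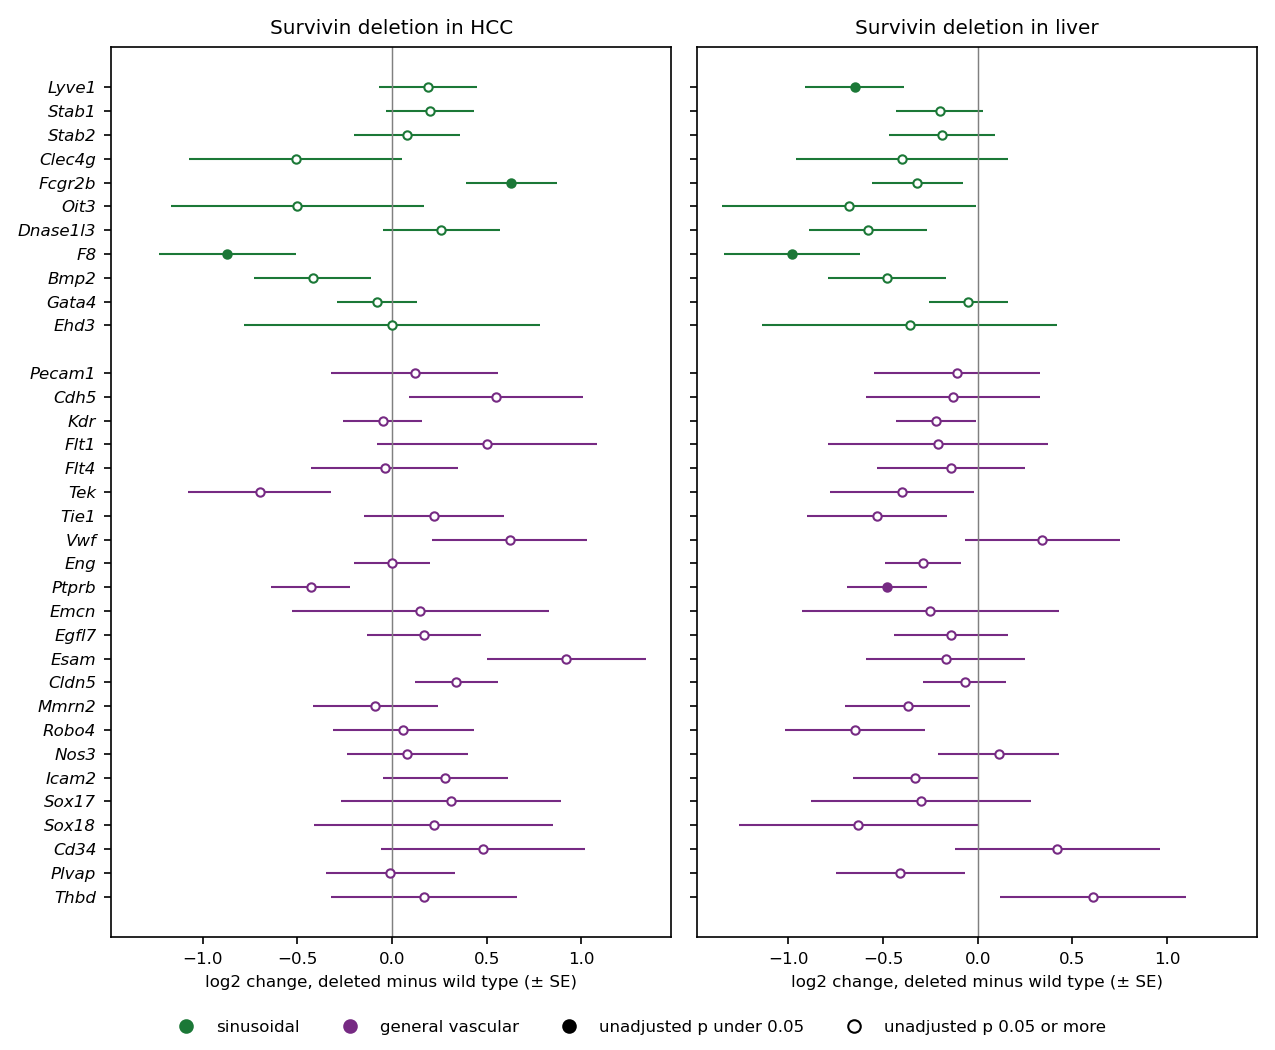
Log2 change of each of the 34 genes, survivin-deleted minus wild type, in HCC (left) and in liver (right), with SE from the limma fit. Green is sinusoidal, purple general vascular, and filled points have an unadjusted p under 0.05. All 11 sinusoidal and 19 of 23 vascular genes lie left of 0 in liver, against 6 and 7 in HCC.

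The difference of the deletion change between the tissues, HCC minus liver, was tested in the same limma fit. No gene passed the adjusted threshold (0%; smallest for a member 0.913), and 871 had an unadjusted p under 0.05. Of the sinusoidal genes 9 of 11 were positive (median 0.27) and 2, Fcgr2b at 0.95 ± 0.34 and Lyve1 at 0.84 ± 0.37 (SE), were past the unadjusted threshold, against 0.845% of all genes higher. Of the vascular genes 20 of 23 were positive (median 0.32) and 0 were past it, against 3.28% of all genes in either direction. Without both arrays in doubt, and likewise on slide 2 alone, 6 sinusoidal genes were positive and 5 negative (median 0.01), and 13 vascular genes were positive and 10 negative (median 0.12). Lyve1 then had unadjusted p = 0.0541 and 0.0575, and Fcgr2b 0.0537 and 0.0441. With any 1 array left out the sinusoidal median lay between -0.02, without deleted HCC replicate 1, and 0.65, without deleted HCC replicate 2.

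Slide 2 held 2 arrays of each group and none of the arrays in doubt. There 9 of 11 sinusoidal genes were highest on a wild-type liver array, and 6 were lowest on deleted HCC replicate 2. The vascular genes ranked otherwise, with 11 of 23 highest on deleted HCC replicate 2, 6 highest on wild-type HCC replicate 2 and 15 lowest on deleted liver replicate 2. Flt1, a VEGF receptor named after its values were seen, measured 1.53 and -0.28 on the deleted HCC arrays of slide 2, and 1.14 and 0.55 on the wild-type HCC arrays.

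**Figure D5:**
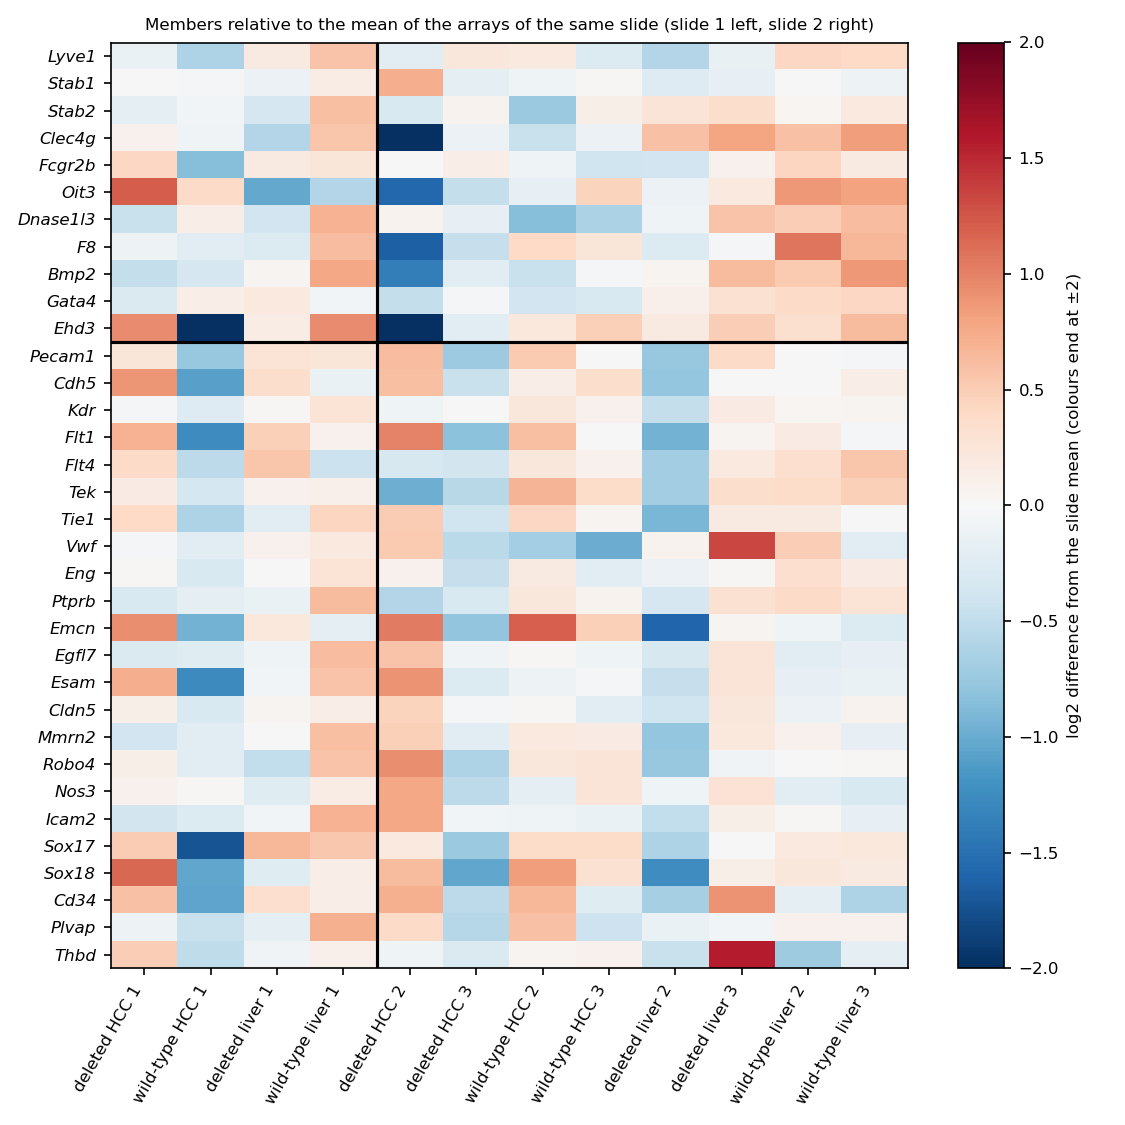
Difference of each gene's log2 level from its mean over the arrays of the same slide, with slide 1 left and slide 2 right of the vertical line, and sinusoidal genes above the horizontal line. Colours end at ±2. On slide 2, deleted HCC replicate 2 holds the lowest values of 6 of 11 sinusoidal genes and the highest of 11 of 23 vascular genes.

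Further sinusoidal and angiogenic genes were read from lists chosen by function. Of 15 other sinusoidal genes, 13 were lower in wild-type HCC than in wild-type liver (median -0.29), 2 of them past the unadjusted threshold, against 2.42% of all genes lower. Rspo3, a Wnt enhancer of central vein endothelium and the gene of smallest p in that list, measured 0.29, -2.46 and -1.91 in wild-type HCC, against 2.15, -0.36 and -0.10 in wild-type liver. Its change was -1.92 ± 0.52 (SE; limma unadjusted p = 0.00446, adjusted p = 0.752), and it was -1.43 ± 0.52 in deleted tissue. Ptgs1, a cyclooxygenase, had a change of -0.73 ± 0.22 in wild-type tissue (SE; unadjusted p = 0.00718).

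In the BMP9 and ALK1 pathway, through which circulating BMP9 acts on endothelium, 9 of 15 genes were lower over both genotypes (median -0.12) and 4 were past the unadjusted threshold as lower, against 3.94% of all genes. They included Hamp2, a hepcidin gene of hepatocytes rather than endothelium, at -2.62 ± 0.78 and the BMP target Id3 at -0.75 ± 0.23 (SE; limma unadjusted p = 0.00757 and 0.00778). Of 23 angiogenic ligands and responders 16 were higher in HCC (median 0.25), with Aplnr, the apelin receptor, at 0.43 ± 0.18 and Hgf, hepatocyte growth factor, at -1.31 ± 0.36 (SE) past the unadjusted threshold, 2 of 23 against 7.27% of all genes in either direction. Of 16 endothelial transcription factors tested, 8 were higher and 8 lower. Past the unadjusted threshold 1 of the 16 was higher and 2 were lower, against 7.27% of all genes in either direction. Foxf1a had a change of -0.82 ± 0.31 and Epas1, a hypoxia-inducible factor, of 0.26 ± 0.10. Of 11 vascular basement membrane genes 7 were higher and 4 lower (median 0.04), with 0 past the threshold, against the same 7.27%.

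Markers of other cells moved with some of these comparisons. Of 12 Kupffer cell and macrophage genes tested (Cd163 did not pass the filter on dim probes) 11 were lower in wild-type HCC than in wild-type liver (median -0.59), 2 past the unadjusted threshold, against 2.42% of all genes lower, and 12 of 12 were lower in deleted liver than in wild-type liver (median -0.28). Their mean level was 1.45 to 2.79 in wild-type HCC and 2.07 to 2.50 in deleted liver, against 2.29 to 3.27 in wild-type liver. Vsig4 and Timd4, resident Kupffer cell genes, had changes of -1.68 ± 0.57 and -1.42 ± 0.57 in wild-type tissue (SE). Fcgr2b and Stab1 are also made by macrophages. Of 13 stellate cell, pericyte and fibroblast genes 10 were lower in wild-type HCC (median -0.24, mean level -0.03 to 0.33, against 0.29 to 0.58 in wild-type liver), 3 of them past the unadjusted threshold. On exchange of the arrays, 12 of 12 Kupffer cell genes were lower in wild-type HCC, 6 of them past the threshold, and 7 of 13 stellate cell genes (median -0.01), 3 of them past it, against 4.02% of all genes lower. The part of either cell type in the sinusoidal result was not tested.

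After deletion in liver, 11 of 11 hepatocyte genes (median -0.34) and 9 of 9 platelet genes (median -0.35) were also lower. Past the unadjusted threshold were 4 of the 11 and 1 of the 9, all lower, against 3.47% of all genes lower. The hepatocyte mean level was 5.45 to 5.56 in deleted liver, against 5.82 to 5.92 in wild-type liver, without overlap. Platelet genes bear on Vwf, which megakaryocytes also make. Their mean level was -2.76 to -2.03 in deleted liver, against -2.34 to -1.49 in wild-type liver. T and NK cell genes were higher after deletion in HCC in 10 of 10 cases (median 1.24). At the unadjusted threshold 4 were higher, against 3.44% of all genes. Their mean level was -1.95 to -0.49 in deleted HCC, highest on replicate 2, against -3.80 to -1.99 in wild-type HCC. On slide 1 the HCC arrays were alike, at -1.95 deleted and -1.99 wild type. The array labelled deleted liver replicate 1, which the value table exchanges with wild-type HCC replicate 1, measured -0.45. Of 7 cholangiocyte genes tested 5 were higher in wild-type HCC (median 0.38) and in deleted liver (median 0.55). Past the unadjusted threshold as higher were 2 of 7 in each comparison, against 3.66% and 8.36% of all genes higher. The 4 lymphatic genes, which bear on Lyve1 and Flt4, had medians of 0.01 in wild-type HCC and 0.41 in deleted liver. The part of these cells in the results was not tested.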

How the data were processed

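The submitters' processing notes name Agilent Feature Extraction 10.7 as the source of the spot intensity values the authors deposited, 1 scanner file per array. Background correction was off and spatial and multiplicative trends were removed, per the file headers. The deposited value table holds log2 values, which the authors shifted to a 75th percentile of 0, and was used as an alternative. Here log2 processed signals of 55681 probes were averaged over unflagged spots, and the array's 75th percentile was subtracted. A probe was tested if some group had it well above background on each of its arrays, and a gene took its brightest such probe. The limma 3.58.1 fit (R 4.3.3) had 4 group means and slide as a block, with 7 residual degrees of freedom and Benjamini-Hochberg adjustment over 26517 genes at 0.05. No spot was saturated.

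The members and lists were chosen with earlier results of these data known, so lists have no p-value of their own. Members with per-array values were the 10 of smallest unadjusted p, with Gata4, Stab2, Lyve1, Cd34 and Plvap always. From each other list, up to 2 genes of smallest unadjusted p in a comparison were named. Where another member was singled out after its values were seen, the text says so. Deviations from the group means correlated at r = 0.278 to 0.737 over 18 same-numbered pairs of arrays, and at -0.697 to 0.536 over 36 other pairs. Both ranges include the difference between slides. Within slide 2 the same-numbered correlations were -0.0897 to 0.284. Slide 1 held only replicate 1 of every group, so slide and replicate set cannot be told apart there. Alternatives were normalization, background correction, filters, probe choice, slide and replicate blocks, single slides, array assignment, the value table, variance model and leaving out each array. The exchanged assignment without a block and with a replicate block was chosen after seeing the data. The fit was tested on simulated data with independent noise and changes placed in wild-type HCC. Of 100 changes of 1 log2 unit, 14 passed the adjusted threshold and 74 the unadjusted one. Of 100 changes of 2 log2 units, 67 and 96 did, and 5 unchanged genes passed the adjusted threshold. Most true changes of 1 log2 unit were thus missed at the adjusted threshold.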

Additional observations from a re-analysis of the deposited data

How the results depend on the processing

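No member passed the adjusted threshold in any setting that gave a test. The median changes of both sets for HCC against liver and for deletion moved by less than 1 residual SD of the list mean after group and slide were fitted (0.30 sinusoidal, 0.43 vascular) in all settings but slide 1 alone, with 1 array per group and no test. There the sinusoidal median was 0.12 for HCC against liver in deleted tissue and -0.71 for deletion in liver, and the vascular median was -0.83 for HCC against liver in wild-type tissue. Of the changes past the unadjusted threshold, F8 after deletion in HCC was 0.12 there, and Clec4g in HCC against liver over both genotypes 0.03, both opposite in sign to the fit of all arrays. The difference of the deletion change between tissues moved by more than that there too, to medians of 0.86 sinusoidal and 0.96 vascular, and to 0.65 sinusoidal without deleted HCC replicate 2. Group differences cannot change with the block in this balanced design (sinusoidal median -0.69 in wild-type tissue with the replicate number as a block), but p-values can. With the replicate block in place of slide, F8 and Vwf over both genotypes and Ptprb for deletion in liver were no longer past the unadjusted threshold. With no block, those 3 changes were not past it either, nor were Bmp2 for HCC against liver in each genotype, Fcgr2b in wild-type tissue, Gata4 and Ptprb over both genotypes, Fcgr2b and F8 for deletion in HCC, Lyve1 for deletion in liver, or Lyve1 and Fcgr2b for the difference between tissues. With any 1 array left out, the sinusoidal median was -0.79 to -0.46 in wild-type tissue, -0.49 to -0.06 in deleted tissue and -0.66 to -0.27 for deletion in liver. The vascular median was -0.39 to 0.07, -0.10 to 0.35 and -0.38 to 0.03 in the same comparisons. In the fit of all arrays the vascular medians were smaller in size than 0.43, so such changes of sign count as moves of less than 1 SD. The precision is limited by 3 arrays per group, and on Flt4 and Sox17 by signals near background.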
